A study of Gallus gallus with 3 samples.

Results

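Gene expression was compared between H2A.Z double-knockout (DKO) DT40 cells to which full-length H2A.Z1 had been returned, called DKO + H2A.Z1 here, and wild-type (WT) DT40 cells. DT40 is a line of chicken lymphoma B cells, widely used because gene targeting is efficient in it. These are 2 of the 3 samples of the series, and the third is a DKO line carrying H2A.Z1 without its C-terminus (H2A.Z1ΔC), whose level is given beside some genes. Every group was hybridised once to a single-colour Agilent chicken array, and the DKO + H2A.Z1 and WT arrays lay on slide 1, the H2A.Z1ΔC array on slide 2. A level is the log2 of the scanner's processed signal minus that array's 75th percentile, averaged over the spots of a probe. A difference is the DKO + H2A.Z1 level minus the WT level, and it was taken over the 29232 of 43598 probes that were well above background on both arrays.

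The histone variant H2A.Z takes the place of canonical H2A in part of the nucleosomes, above all in those that flank transcription start sites and in regulatory elements. Vertebrates encode it in a pair of genes, H2A.Z1 and H2A.Z2, whose proteins are nearly identical. Dedicated remodelling complexes exchange it into and out of chromatin, and it has been linked both to genes held ready for induction and to silent developmental genes. The comparison asks how far the profile of DKO cells labelled as carrying H2A.Z1 departs from that of the wild-type line. The promoter that drives the introduced gene and the number of clones are not given in the sources used here, and DKO cells without a returned gene are not analysed here, so the knockout, the introduced gene and the history of a clone cannot be told apart.

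With 1 array per group no difference below has a replicate check, and no test was possible. Precision is limited by the number of arrays. RNA came from whole cultures, so fewer cells with a transcript and less of it per cell cannot be told apart. Spots of the same probe on these arrays gave a standard deviation of the log2 difference of 0.0918 (41 probes), which covers spotting and scanning only, and 2 probes of the same gene differed with a standard deviation of 0.228. A call of changed means a difference of 1 or more in size, that is 2-fold. The deposited matrix of processed values holds a second value per spot for DKO + H2A.Z1 that is no multiple of its scanner signal, and the array it came from is unknown. The matrix column of WT is its scanner signal times 1.07, so both sets of values share the WT array, and the second set is given as the matrix value beside the first. Probes well above background numbered 29946 (68.7%) on the DKO + H2A.Z1 array and 30402 (69.7%) on the WT array. Of 17 B-cell markers, 13 had a named probe and 12 of these were well above background on both arrays, among them CD79B, a chain of the B-cell receptor, with levels of 6.58 in DKO + H2A.Z1 and 6.53 in WT at its brightest probe.

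H2AFZ, the chicken gene of H2A.Z1, was lower in DKO + H2A.Z1 at both of its probes. At probe 1 its level was 0.81 in DKO + H2A.Z1, with a matrix value of 0.34, against 5.87 in WT. At probe 2 it was -0.31 in DKO + H2A.Z1, with a matrix value of -0.64, against 6.17 in WT. The differences were -5.06 and -6.48, or 33.4-fold and 89.2-fold lower in DKO + H2A.Z1. Both probes were still well above background there, and whether they can detect the introduced gene was not tested. The other H2A.Z gene had no probe with its symbol.

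Most of the measured transcriptome sat close to WT. Over all compared probes the median difference was -0.02 and its robust standard deviation 0.268, and 418 probes (1.43%) were higher and 655 (2.24%) lower, together 3.67%. With the matrix values 879 probes (3.01%) were higher and 1215 (4.16%) lower, together 7.16%, and the robust standard deviation was 0.383. A gene symbol could be given to 11934 probes, and over the 4218 named genes measured, 50 (1.19%) were higher and 92 (2.18%) lower, together 3.37%. With the matrix values 104 named genes (2.47%) were higher and 139 (3.3%) lower, together 5.76%. The changed genes lay mostly among dim ones. With the genes split into 3 equal groups by mean level, 8.11% were changed in the dimmest group, 1.42% in the middle group and 0.569% in the brightest. Of 65 genes with a second probe whose brightest probe was changed, the second probe had the same sign in 65 and was itself changed in 50.

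**Figure D1:**
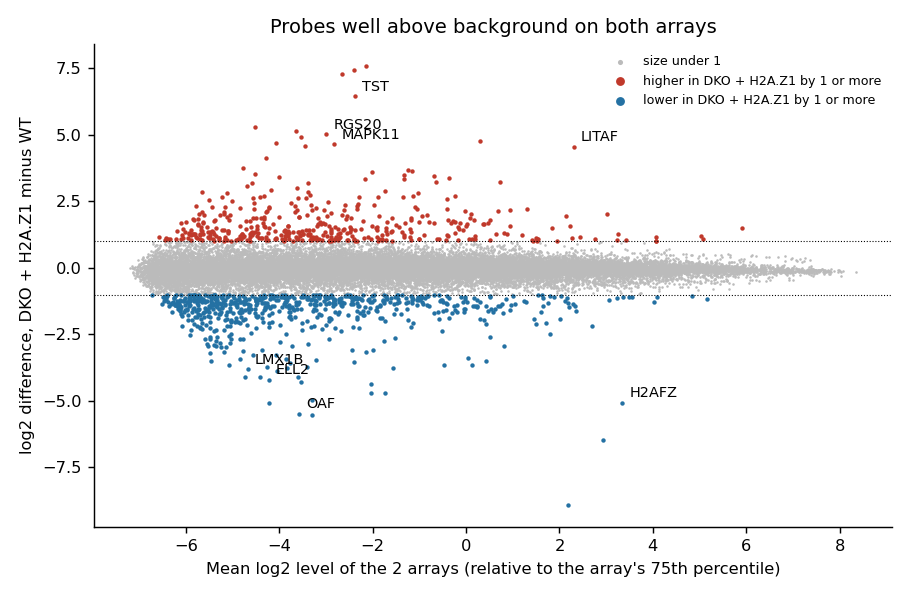
Log2 difference of DKO + H2A.Z1 minus WT (vertical) against the mean log2 level of the 2 arrays (horizontal, relative to the 75th percentile) for the 29232 compared probes, 1 point each, with red for 418 probes higher and blue for 655 probes lower by 1 or more and grey for the rest. The coloured points lie mostly at low levels, while LITAF and H2AFZ stand out among brighter probes.

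The genes that were higher in DKO + H2A.Z1 by the most were led by an enzyme of sulfide metabolism and by regulators of signalling. For genes with several probes the values below are those of the brightest probe. TST, the mitochondrial thiosulfate sulfurtransferase also called rhodanese, had a level of 0.85 in DKO + H2A.Z1 (matrix 0.50), 0.16 in H2A.Z1ΔC and -5.61 in WT. Its difference was 6.46, or 88.1-fold, and 6.10 with the matrix values. RGS20, which speeds the GTPase step of inhibitory G-protein alpha subunits, had a level of -0.48 in DKO + H2A.Z1 (matrix -0.53), 0.60 in H2A.Z1ΔC and -5.50 in WT. All 3 of its probes were higher, by 4.93 to 5.15. MAPK11, a stress-activated MAP kinase, had a level of -0.51 in DKO + H2A.Z1 (matrix 0.35), 0.22 in H2A.Z1ΔC and -5.15 in WT, a difference of 4.65 (matrix 5.50). LITAF, a membrane protein of late endosomes and lysosomes, had a level of 4.59 in DKO + H2A.Z1 (matrix 3.41), 4.38 in H2A.Z1ΔC and 0.03 in WT. Its 2 probes were higher by 4.55 and 4.78. In these 4 genes both DKO lines and the matrix value were far above WT, and in TST, RGS20 and MAPK11 the WT signal was near the dim end of the measured range. With normexp background correction and quantile normalization the differences were 4.92 for TST, 3.68 for RGS20, 3.36 for MAPK11 and 4.49 for LITAF.

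MPST, the sulfurtransferase that acts on mercaptopyruvate and the neighbour of TST in the reference gene order, was not well above background in WT at either of its 2 probes. Its brighter probe had a level of 0.64 in DKO + H2A.Z1 (matrix 0.52), 0.32 in H2A.Z1ΔC and a measured -9.37 in WT. Where WT was not above background, a fold was taken against the higher of the probe's own WT value and the lowest signal well above background on that array, which made MPST at least 229-fold higher in DKO + H2A.Z1. By the same bound MAL2, a membrane protein of apical transport in epithelial cells, was at least 44.1-fold higher, with a level of -1.74 in DKO + H2A.Z1 (matrix -0.96), -1.08 in H2A.Z1ΔC and -8.22 in WT. FRZB, a secreted antagonist of Wnt ligands, was above background in DKO + H2A.Z1 alone of the pair at 4 of its 5 probes, and at least 16.5-fold higher at the brightest of these, with a level of -3.16 in DKO + H2A.Z1 (matrix -3.39), -1.90 in H2A.Z1ΔC and -7.89 in WT, and the probe measured on both arrays had a difference of 1.97. A further probe of MAPK11 was at least 25.5-fold higher. Across the array 694 probes had such a bound in the higher direction, and 189 of them reached 2-fold, covering 33 named genes. In the lower direction 1170 probes had one, and 410 of them reached 2-fold, covering 71 named genes.

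The remaining higher genes of the leading 15 had differences from 2.26 to 3.68. FAM26E, of the calcium homeostasis modulator channel family, had a level of 0.59 in DKO + H2A.Z1 (matrix -0.65), -3.12 in H2A.Z1ΔC and -3.09 in WT, so that H2A.Z1ΔC lay beside WT there. CD3E, a signalling chain of the T-cell receptor complex, had a level of -2.30 in DKO + H2A.Z1 (matrix -0.33), -4.73 in H2A.Z1ΔC and -5.71 in WT at its brightest probe, a difference of 3.41, while the other measured probe differed by 0.78. OCM3, a calcium-binding protein of the parvalbumin family, differed by 3.01 (matrix 2.34), and PRR5, a subunit of an mTOR complex, by 2.89 (matrix 2.55). KCNMB1, a regulatory subunit of calcium-activated potassium channels, had a level of 1.11 in DKO + H2A.Z1 (matrix -0.41), -0.32 in H2A.Z1ΔC and -1.59 in WT. Both of its probes were higher, by 2.68 and 2.70. ZC3HAV1, an antiviral protein that binds viral RNA, differed by 2.70 (matrix 3.32), and SERPINE2, an inhibitor of thrombin and other serine proteases, by 2.69 (matrix 2.37). ANXA5, which binds phosphatidylserine, had a level of -2.28 in DKO + H2A.Z1 (matrix -0.45), 0.30 in H2A.Z1ΔC and -4.91 in WT, the DKO + H2A.Z1 array lying between the others. LRRC40, a leucine-rich repeat protein, differed by 2.40, SELENOP1, a selenium carrier, by 2.37, and GAS2L3, which joins actin and microtubules, by 2.26. In 14 of the 15 genes the WT level lay in the range of the dimmest group of genes, LITAF being the exception, and of the 9 with more than 1 measured probe all but CD3E had every probe changed (8 genes). With normexp and quantile normalization CD3E differed by 1.88.

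Among the genes lower in DKO + H2A.Z1 were a factor of transcript elongation, a neuronal microtubule protein and several adhesion molecules. OAF had a level of -6.31 in DKO + H2A.Z1 (matrix -3.64), -3.22 in H2A.Z1ΔC and -0.83 in WT. Its difference was -5.48, or 44.5-fold lower, and -2.81 with the matrix values. ELL2, an elongation factor of RNA polymerase II known for its part in immunoglobulin secretion by plasma cells, had a level of -6.33 in DKO + H2A.Z1 (matrix -3.72), -3.13 in H2A.Z1ΔC and -2.12 in WT, a difference of -4.21 (matrix -1.60). OAF and ELL2 were thus lowest on the DKO + H2A.Z1 scanner array, with the matrix value nearer to H2A.Z1ΔC. LOC420160, which carries no other name in the reference table, differed by -4.95 (matrix -1.95). LMX1B, a LIM homeodomain factor of limb and brain patterning, had a level of -6.58 in DKO + H2A.Z1 (matrix -8.06), -7.02 in H2A.Z1ΔC and -2.78 in WT. Its 2 measured probes were lower, with differences of -3.80 and -2.07, and a further probe was at least 11.1-fold lower. With normexp and quantile normalization the differences were -3.64 for OAF, -2.18 for ELL2 and -1.92 for LMX1B.

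ANO3, a member of the anoctamin family, differed by -3.71 (matrix -3.38), and AVD, the biotin-binding egg-white protein avidin, by -3.50 (matrix -3.43). DCX, the microtubule-binding doublecortin of migrating neurons, had a level of -5.57 in DKO + H2A.Z1 (matrix -5.76), -4.28 in H2A.Z1ΔC and -2.13 in WT, and both measured probes were lower. CD5, a receptor of T cells and of some B cells, differed by -3.16 at its brightest probe and by -0.34 at the other. COL20A1, a fibril-associated collagen, had a level of -3.71 in DKO + H2A.Z1 (matrix -7.80), -7.70 in H2A.Z1ΔC and -0.56 in WT, so the matrix difference was -7.24 and the scanner difference -3.15. CDH4, the retinal cadherin, differed by -2.49 and SDC4, a heparan sulfate proteoglycan of the cell surface, by -2.38. SDC4 had a level of -3.86 in DKO + H2A.Z1 (matrix -4.37), -0.66 in H2A.Z1ΔC and -1.48 in WT, the H2A.Z1ΔC array being the highest. FRS2, an adaptor of fibroblast growth factor receptors, differed by -2.32 at one probe and -0.05 at the other. LMO2, a LIM-only partner of haematopoietic transcription factors, had a level of -4.23 in DKO + H2A.Z1 (matrix -3.73), -1.77 in H2A.Z1ΔC and -1.94 in WT, a difference of -2.29. EPGN, a ligand of the epidermal growth factor receptor, differed by -2.23 and XIRP1, an actin-binding protein of striated muscle, by -2.17. In all 15 lower genes the DKO + H2A.Z1 level lay in the range of the dimmest group. With normexp and quantile normalization AVD differed by -1.45, and over the 40 genes named by size 40 differences were smaller, 27 of them by over 1.5-fold.

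**Figure D2:**
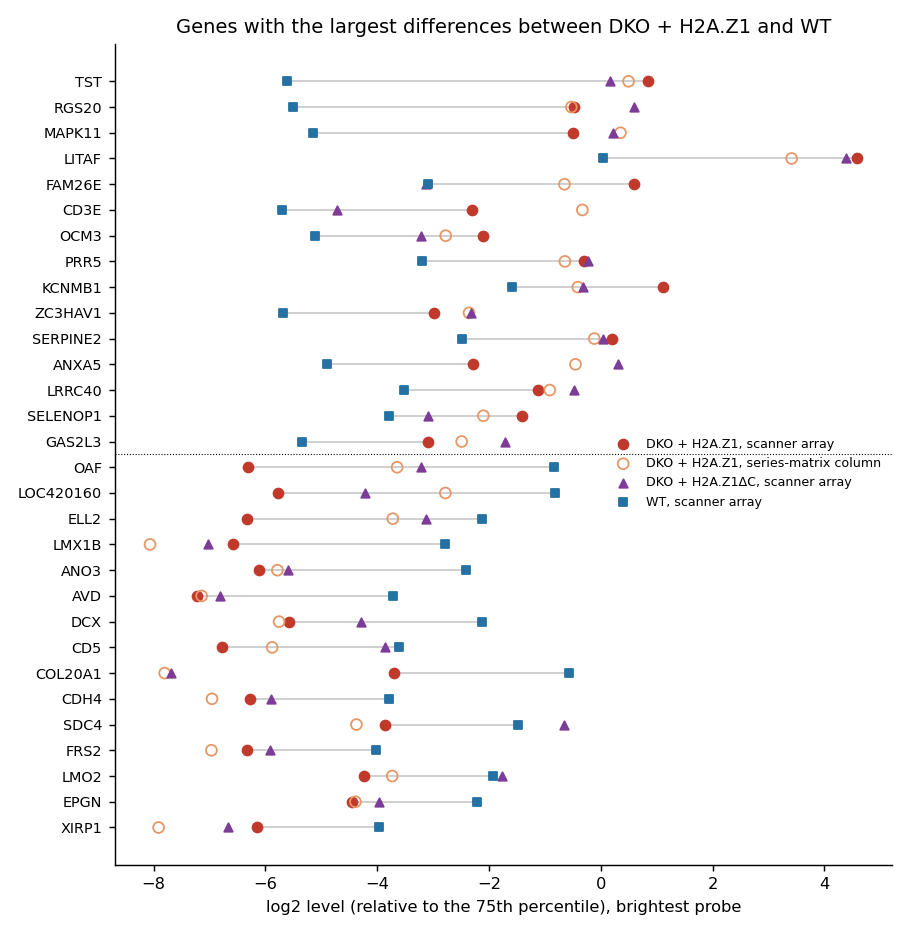
Log2 level relative to the 75th percentile at the brightest probe (horizontal) of the 15 genes with the largest differences in each direction (down the page, higher genes above the dotted line), with red dots for the DKO + H2A.Z1 array, open circles for its matrix column, purple triangles for the H2A.Z1ΔC array and blue squares for the WT array. TST, RGS20, MAPK11 and LITAF show the widest gaps above WT, and for OAF and ELL2 the open circle lies between the red dot and the blue square.

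Some genes were below the background criterion in DKO + H2A.Z1 and bright enough in WT to give a bound in the other direction. CDH2, the neural cadherin, was at least 20.7-fold lower in DKO + H2A.Z1 at one probe, with a measured level of -8.54 in DKO + H2A.Z1 (matrix -7.75), -9.40 in H2A.Z1ΔC and -2.92 in WT. MBL2, a mannose-binding lectin of innate immunity, was at least 13.4-fold lower, with a level of -7.53 in DKO + H2A.Z1 (matrix -7.75), -6.50 in H2A.Z1ΔC and -3.54 in WT. MPZL2, an epithelial adhesion protein of the immunoglobulin superfamily, was at least 8.09-fold lower, with a level of -8.40 in DKO + H2A.Z1 (matrix -5.81), -7.42 in H2A.Z1ΔC and -4.27 in WT. In these 3 genes the H2A.Z1ΔC array was also dimmer than WT.

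A further 15 named genes were higher and 29 lower on the scanner arrays without reaching 1 in that direction with the matrix values. NAV3, a neuron navigator protein, had a level of -1.17 in DKO + H2A.Z1, where the matrix value was -5.54, against -7.23 in H2A.Z1ΔC and -5.74 in WT. FABP5, a fatty acid binding protein, had a level of -1.80 in DKO + H2A.Z1, where the matrix value was -8.02, against 0.72 in H2A.Z1ΔC and -4.99 in WT. Its difference was 3.18 on the scanner arrays and -3.03 with the matrix values. The values given for this sample thus stand on opposite sides of WT for FABP5, its only probe. COL1A2, a chain of type I collagen, had a level of 0.06 in DKO + H2A.Z1 (matrix -1.82), and -2.23 both in H2A.Z1ΔC and in WT. SLCO4A1, an organic anion transporter, differed by 1.80 (matrix 0.97). Of the lower genes, APP, the amyloid precursor protein, had a level of -6.63 in DKO + H2A.Z1 (matrix -3.10), -2.60 in H2A.Z1ΔC and -3.65 in WT, so its difference was -2.97 on the scanner arrays and 0.55 with the matrix values. TENM2, a teneurin adhesion protein, had a level of -2.75 in DKO + H2A.Z1 (matrix -0.01), -0.31 in H2A.Z1ΔC and -0.86 in WT. PMEL, a melanosome protein, differed by -1.74 (matrix -0.92), SSX2IP, a centrosome protein, by -1.64 (matrix -0.29), and KDM5B, a demethylase of histone H3, by -1.63 (matrix -0.63).

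**Figure D3:**
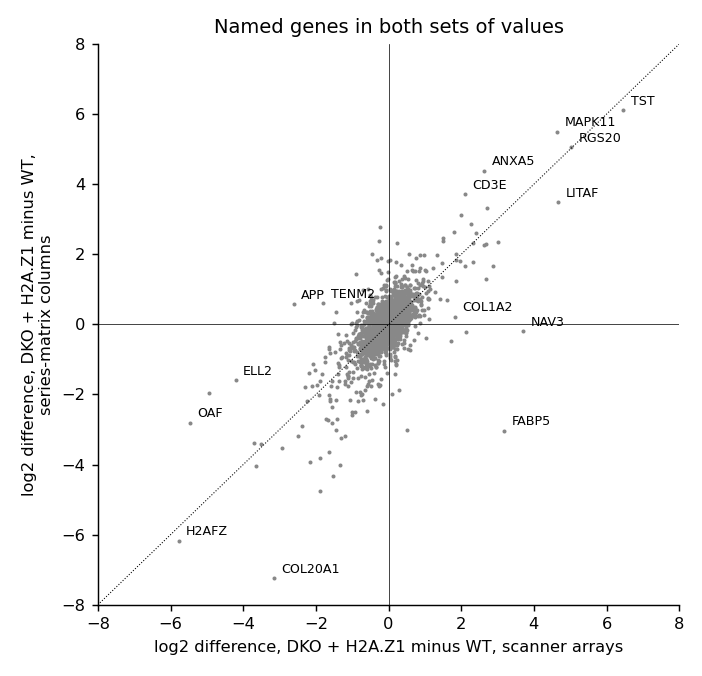
Log2 difference of DKO + H2A.Z1 minus WT for the 4218 measured named genes, 1 point each, on the scanner arrays (horizontal) and with the matrix columns (vertical), which share the WT array, with a dotted line where both are equal. TST, RGS20 and MAPK11 lie near the line at the upper right, H2AFZ near it at the lower left, NAV3 and COL1A2 near a matrix difference of 0, and FABP5 at the lower right with 3.18 and -3.03.

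Gene classes were described by how many measured members were changed, beside the 3.37% of all measured named genes, and by their median difference, beside -0.02 over all of them. For a class member the value is the mean over its measured probes. Of 34 classes, 15 had 0 changed members among 468 different genes. The other 19 classes together held 706 different genes, of which 19 were higher and 31 lower (7.08%). The classes were parted here by whether any member was changed, so the gap between these shares follows from the split. The 7.08% can therefore not be compared with the 3.37% of all genes.

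The B-cell machinery was mostly at its WT level. Among B-cell receptor signalling genes 0 of 29 measured were changed (1 higher with the matrix values), with a median difference of 0.10 (matrix -0.13). The largest were BCL10, an adaptor towards NF-kappaB, at -0.72 (matrix -0.79) and PIK3AP1, an adaptor of phosphoinositide kinase, at 0.59 (matrix 0.20). Among the genes of immunoglobulin diversification 0 of 10 measured were changed, and the largest were the polymerase POLH at -0.44 and the repair protein BRCA1 at 0.32.

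Among transcription regulators of B cells and plasma cells, of 27 measured, 1 was higher and 3 lower, with a median of 0.10 (matrix 0.07). The changed share was 14.8%, and 10 of the 27 lay in the dimmest group of genes, of which 8.11% were changed in all. IRF4, which drives plasma-cell differentiation, had a level of 1.40 in DKO + H2A.Z1 (matrix 1.39), 1.64 in H2A.Z1ΔC and 0.28 in WT, a difference of 1.12 (matrix 1.11). IRF8, a related factor of B cells and myeloid cells, had a level of 0.05 in DKO + H2A.Z1 (matrix 0.45), 0.98 in H2A.Z1ΔC and 1.13 in WT, a difference of -1.08 (matrix -0.68). The other 2 were ELL2 and LMO2, given above. IRF4 was thus above WT and IRF8 below it, with the matrix value of IRF8 short of 2-fold.

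Innate immune receptors and cytokine genes held more changed members than most classes, and most of the cytokine genes were dim. In the dimmest group of genes 8.11% were changed in all. That group held 4 of the 10 measured Toll-like receptor genes and adaptors and 27 of the 36 cytokine genes. The changed shares of these classes were 20% and 16.7%. Of 10 measured Toll-like receptor genes and adaptors, TLR3, a sensor of double-stranded RNA, and TLR4, the lipopolysaccharide receptor, were lower, both at 1 probe. TLR3 had a level of -5.26 in DKO + H2A.Z1 (matrix -4.31), -4.32 in H2A.Z1ΔC and -3.18 in WT, and TLR4 a level of -5.37 in DKO + H2A.Z1 (matrix -4.63), -3.02 in H2A.Z1ΔC and -3.33 in WT. TLR1A, a receptor for bacterial lipopeptides, moved the other way and was at least 10.7-fold higher by its bound. Its level was -3.77 in DKO + H2A.Z1 (matrix -4.99) and -8.15 in WT. CD14, a co-receptor of TLR4, was at least 3.10-fold lower, with a level of -8.57 in DKO + H2A.Z1 (matrix -8.12) and -5.66 in WT. The class median was -0.13 (matrix -0.33).

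Of 36 measured cytokines, chemokines and receptors, 2 were higher and 4 lower, with a median of -0.05 (matrix 0.10). CXCR7, a scavenging chemokine receptor, had a level of -1.49 in DKO + H2A.Z1 (matrix -0.66), -0.34 in H2A.Z1ΔC and -3.29 in WT, and IL10RB, a chain of interleukin receptors, differed by 1.34 (matrix 1.99). IL21R, the interleukin receptor that drives B-cell maturation, had a level of -3.85 in DKO + H2A.Z1 (matrix -5.79), -5.23 in H2A.Z1ΔC and -1.97 in WT. IL18, an interferon-inducing cytokine, differed by -1.71 (matrix -2.69), TNFRSF1A, a receptor of tumour necrosis factor, by -1.10 (matrix -0.88), and IL6ST, the shared signal chain of the interleukin-6 family, by -1.01 (matrix -2.50). Of these 6 genes, TNFRSF1A was the one under 2-fold with the matrix values. In the interferon response class 1 of 14 was lower, the transcription factor IRF1 with -1.61 (matrix -2.19), and in antigen presentation 1 of 15, the protease CTSS with -1.09 (matrix -0.73). The changed shares of these classes, 7.14% and 6.67%, were below the 8.11% of the dimmest group of genes. That group held 11 of the 14 interferon response genes and 8 of the 15 antigen presentation genes.

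Signalling classes held a few members with wide gaps. The changed shares were 10.5% for MAP kinases and 9.52% for RGS and G-protein signalling, beside 3.37% of all named genes. They were 9.09% for sulfur and sulfide metabolism and 16.7% for the class of annexins and fatty acid binding proteins. The dimmest group of genes, of which 8.11% were changed in all, held 6 of 19, 11 of 21, 2 of 11 and 5 of 12 members, in that order. Of 19 MAP kinases and their regulators, MAPK11 and SPRY2, an inhibitor of receptor tyrosine kinase signals, were higher. SPRY2 differed by 1.09 (matrix 0.76). The class median was 0.22 (matrix 0.23), and 15 of 19 members were above 0. Of 21 measured genes of RGS proteins and G-protein signalling, RGS20 was higher and RGS6 lower, with a median of 0.02. RGS6, another GTPase-activating protein, had a level of 0.26 in DKO + H2A.Z1 (matrix 0.62), 0.88 in H2A.Z1ΔC and 1.44 in WT. In sulfur amino acid and sulfide metabolism TST was the 1 changed gene of 11 measured, and the lowest of the others was at -0.54. By their bounds MPST was higher, as given above, and MAT1A, which makes S-adenosylmethionine in liver, was at least 3.67-fold lower, with a level of -7.54 in DKO + H2A.Z1 (matrix -7.61), -4.34 in H2A.Z1ΔC and -5.41 in WT. In the class of annexins, calcium-binding S100 proteins and fatty acid binding proteins, 2 of 12 were higher, ANXA5 and FABP5. FABP5 was lower than WT with the matrix values, at -3.03. FABP4, of adipocytes and macrophages, was at least 7.19-fold higher by its bound, with a level of -4.35 in DKO + H2A.Z1 (matrix -5.69) and -9.20 in WT.

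Developmental, adhesion and channel genes were mostly dim, and their changed members went both ways. The dimmest group of genes, of which 8.11% were changed in all, held 38 of the 50 adhesion and 40 of the 48 channel genes. It also held 54 of 69 developmental ligands and receptors and 47 of 57 developmental transcription factors. The changed shares of these classes were 12%, 12.5%, 7.25% and 3.51%, in that order. Of 50 measured adhesion and matrix genes, 1 was higher and 5 were lower, with a median of -0.19 that was -0.00 with the matrix values. COL1A2 was the higher one, and COL20A1, CDH4, SDC4, COL22A1 and CDH20 were lower. COL22A1, a collagen of tissue junctions, differed by -1.43 (matrix -2.71), and CDH20, a cadherin, by -1.38 (matrix -1.15). FN1, the matrix protein fibronectin, had probes whose bounds disagreed, one at least 8.21-fold higher and another at least 6.27-fold lower, so no direction is given for it. The fibroblast marker list, to which COL1A2 also belongs, had a summed signal of 1.44 times the 75th percentile in DKO + H2A.Z1, 0.632 with the matrix values and 0.633 in WT. Of its 8 measured genes COL1A2 alone was above 0, the median was -0.25 (matrix -0.45), and POSTN, the matrix protein periostin, was lower with -1.12 (matrix -1.01). LUM, the proteoglycan lumican, was at least 6.36-fold higher by its bound. Its level was -4.53 in DKO + H2A.Z1, where the matrix value was -7.89, against -5.39 in H2A.Z1ΔC and -9.12 in WT. DCN, FAP, PDGFRA and THY1 of that list were above background on neither array, and the part of other cells in the COL1A2 value was not tested.

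Of 48 measured ion channel genes, 3 were higher and 3 lower, with a median of -0.02 (matrix 0.19). FAM26E and KCNMB1 were joined by TRPC1, a cation channel subunit, with 1.27 (matrix 0.92). The lower ones were ANO3, the nicotinic receptor subunit CHRNB2 with -1.61 (matrix -0.83) and the potassium channel KCNA10 with -1.45 (matrix -3.01). Of 69 developmental ligands and receptors, 2 were higher and 3 lower. PDGFB, a platelet-derived growth factor chain, had a level of -0.75 in DKO + H2A.Z1 (matrix -1.20), -0.83 in H2A.Z1ΔC and -2.86 in WT, and its 3 probes were higher by 2.04 to 2.19. TGFBR2, a receptor of transforming growth factor beta, differed by 1.86 (matrix 1.24). FST, the activin-binding follistatin, had a level of -3.64 in DKO + H2A.Z1 (matrix -5.63), -5.70 in H2A.Z1ΔC and -1.99 in WT. The Wnt ligands WNT8A and WNT9A differed by -1.55 (matrix -2.36) and -1.04 (matrix 0.02). Of 57 measured homeobox and developmental transcription factors, LMX1B and SATB1, a chromatin organiser of lymphocytes, were lower, SATB1 with -1.40 (matrix -1.10).

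**Figure D4:**
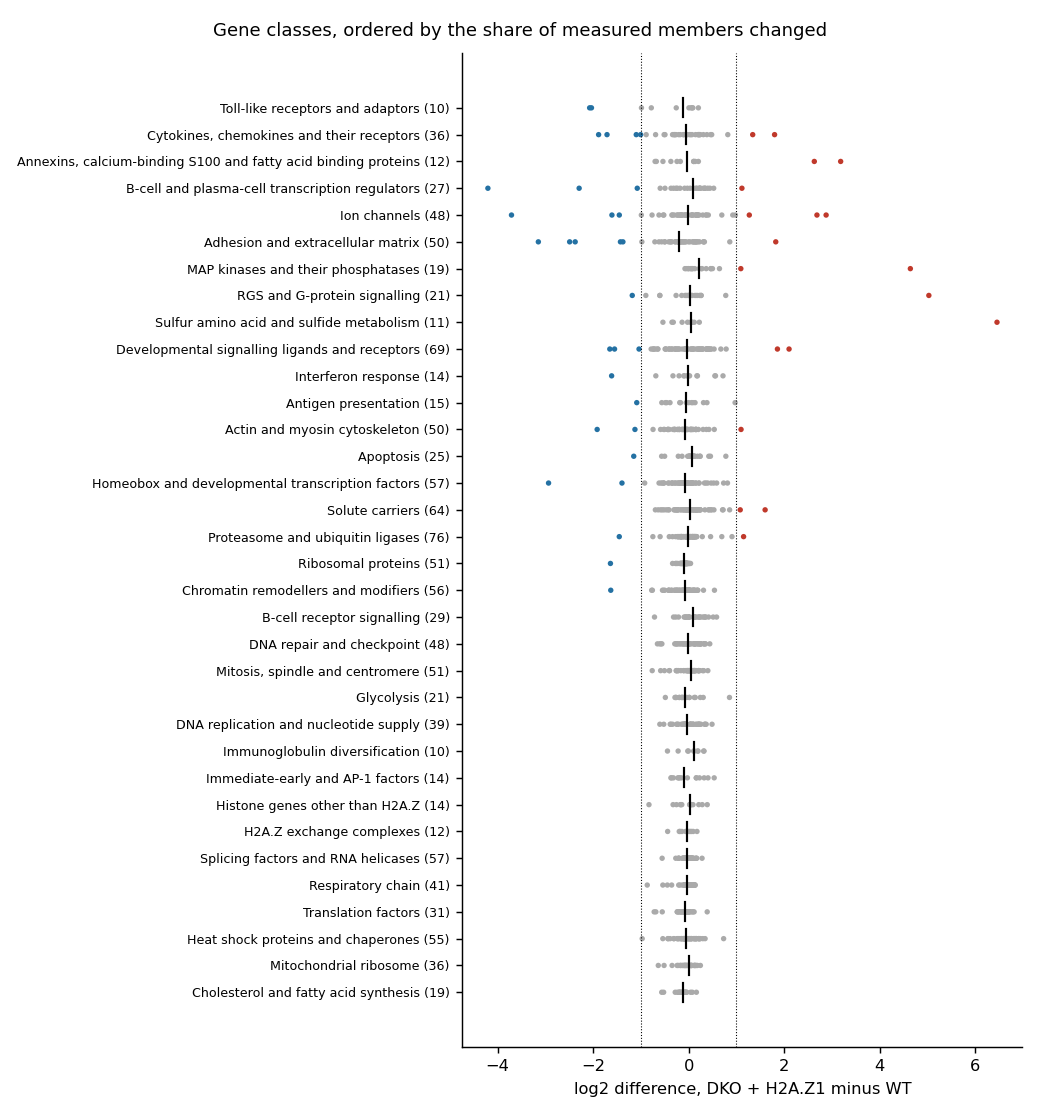
Log2 difference of DKO + H2A.Z1 minus WT (horizontal) for the measured members of 34 gene classes (down the page, number measured in brackets), 1 point per gene, with red for higher and blue for lower by 1 or more, a black bar at each class median and dotted lines at 1 and -1. The medians stay close to 0 while single members such as TST, RGS20, MAPK11 and ELL2 lie far out, and the lowest 15 classes have no coloured point.

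Classes of the cell's general machinery held few or no changed genes, and many of their members belong to the brightest group of genes, of which 0.569% were changed in all. That group held 50 of 51 ribosomal protein genes, 35 of 36 genes of the mitochondrial ribosome and 40 of 57 splicing genes. None of 39 DNA replication genes, 51 mitosis genes or 48 DNA repair genes was changed on the scanner arrays. Their medians were -0.04, 0.04 and -0.00 (matrix -0.13, -0.10 and -0.09). With the matrix values 2 mitosis genes were lower, and of the DNA repair genes 1 was higher and 2 were lower. None of the 12 members of the complexes that exchange H2A.Z, or of 14 other histone genes (2 lower with the matrix values), was changed. Within them ING3, a subunit of an acetyltransferase complex, differed by -0.44 (matrix -0.92), and H2AFY2, a macroH2A gene, by -0.83 (matrix -1.06). KDM5B was the 1 changed gene of 56 chromatin remodellers and modifiers. The class median was -0.07 (matrix -0.20). Of 51 ribosomal protein genes 1 was lower, RPL3L, a paralog of RPL3 known from striated muscle in mammals, with a level of -1.17 in DKO + H2A.Z1 (matrix -1.55), -1.70 in H2A.Z1ΔC and 0.47 in WT. The ribosomal median was -0.09, with a matrix value of 0.14 and 0.01 after quantile normalization, so its sign depends on the scaling.

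None of 57 splicing, 55 chaperone, 41 respiratory chain, 36 mitochondrial ribosome, 31 translation factor, 21 glycolysis, 19 lipid synthesis and 14 immediate-early genes was changed. The largest of the glycolysis genes was PFKFB4, which makes and degrades the fructose bisphosphate that regulates the pathway, at 0.86 (matrix 1.98), and of the immediate-early genes MAFK, a small MAF protein, at 0.54 (matrix 0.90). Of 50 genes of the actin and myosin cytoskeleton, PLS1, an actin-bundling plastin, was higher by 1.10 (matrix 1.24). MYO1F, a myosin of immune cells, had a level of 0.50 in DKO + H2A.Z1 (matrix 0.39), -0.37 in H2A.Z1ΔC and 2.41 in WT, and ACTN2, an alpha-actinin, differed by -1.12 (matrix -1.47). Of 64 solute carriers SLCO4A1 and SLC17A5, a lysosomal sialic acid exporter, were higher, the second by 1.08 (matrix 0.96). In apoptosis 1 of 25 was lower, BCL2, which keeps mitochondria intact, at -1.15 (matrix -0.49). Among 76 proteasome and ubiquitin ligase genes TRIM39.2 differed by 1.15, and was also past 2-fold with the matrix values, and TRIM27.2 by -1.45 (matrix 0.36). The changed shares of the cytoskeleton, solute carrier, apoptosis and proteasome classes were 6%, 3.1%, 4% and 2.63%, beside 3.37% of all named genes.

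Lists of other cell types were checked because CD3E and CD5 belong to T cells as well. Of 14 T-lineage genes on the array 8 were measured, CD3E higher and CD5 lower, with a median of -0.28 (matrix -0.04). CD4, CTLA4, ICOS, IL7R and THY1 were above background on neither array. The summed signal of the list was 72.4 times the 75th percentile in DKO + H2A.Z1, 85.9 with the matrix values and 84.7 in WT. Of the 8 measured genes 6 lay in the dimmest group of genes and 1 in the brightest. The sum is thus set mostly by that 1 bright gene and says little about the dim ones, CD3E and CD5 among them. In the erythroid list the alpha-globin gene HBA1 differed by -1.43 (matrix -1.80), and per the labels' protocols globin transcripts were removed from the RNA. None of 7 measured myeloid, 4 thrombocyte and 6 epithelial genes was changed. With the matrix values 2 myeloid genes were lower, 1 thrombocyte gene was higher, and 1 epithelial gene was higher and 1 lower.

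Beside single genes, 4 runs of neighbouring genes had a running median over 15 genes that lay 0.3 or more below 0, taking the gene order of the reference table. Since the runs were chosen on these scanner differences, the scanner medians and counts within them describe that choice. The longest ran from CBFB to CHST6 and held 92 measured genes with a median of -0.51 (matrix -0.54, H2A.Z1ΔC minus WT -0.50). Of them 85 were below 0, while the rest of that chromosome had a median of -0.01. A second, from SLC25A32 to PUF60, held 33 genes with a median of -0.37 (matrix -0.38, H2A.Z1ΔC minus WT -0.35), of which 29 were below 0. Those differences share the WT array. In both runs the lower level was present in each of the 3 sets of values.

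The run from CRIPT to PEX7, taken as a whole, differed from these. Its 67 genes had a median of -0.48 on the scanner arrays, with 57 below 0, but -0.05 with the matrix values, where 32 were above 0, and -0.07 in H2A.Z1ΔC minus WT. COX20, an assembly factor of cytochrome oxidase in this run, had a level of 0.28 in DKO + H2A.Z1, where the matrix value was 1.25, against 0.94 in H2A.Z1ΔC and 1.15 in WT. The first part of the run, the 25 genes from CRIPT to GPATCH11, was also a run when chosen on the matrix values. Its medians were -0.44 on the scanner arrays, -0.26 with the matrix values and -0.25 in H2A.Z1ΔC minus WT. A short run of 19 genes from SEPTIN7 to SIRT5 had a median of -0.20 (matrix -0.25). The cause of these runs was not tested.

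**Figure D5:**
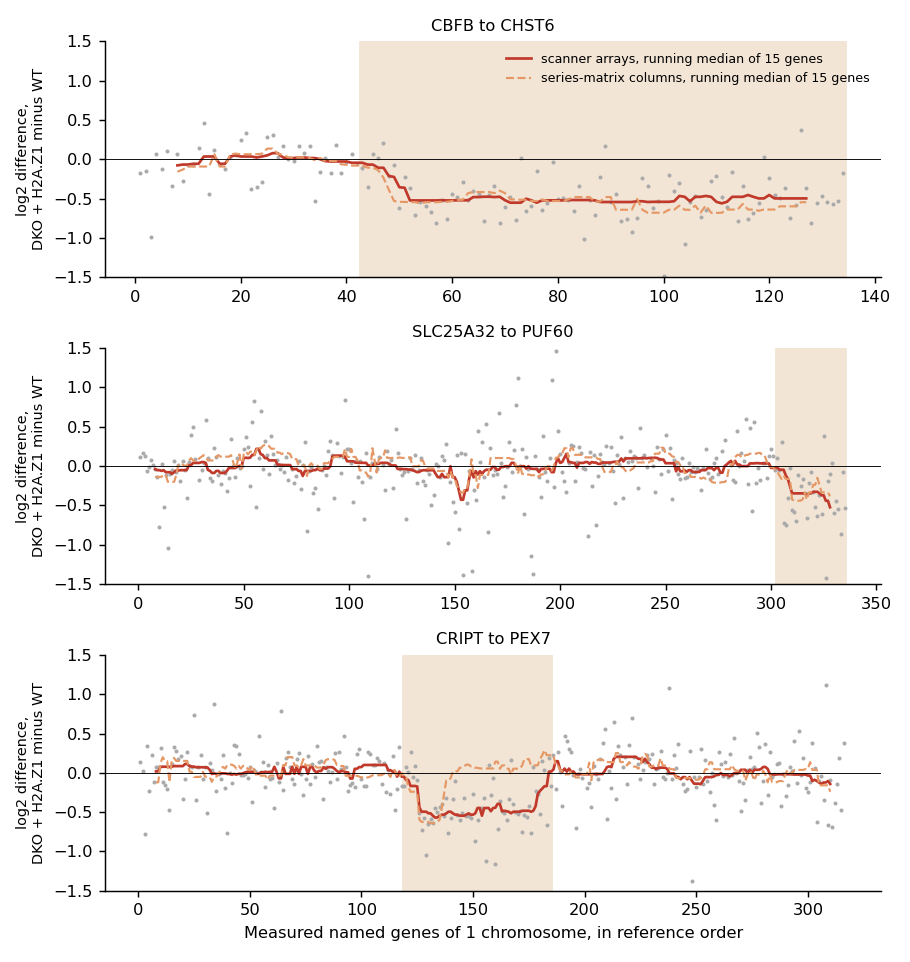
Log2 difference of DKO + H2A.Z1 minus WT (vertical, cut at 1.5 and -1.5) along the measured named genes of 3 chromosomes in reference order (horizontal), with grey points for genes, a red line for the running median over 15 genes on the scanner arrays, a dashed line for that of the matrix columns and shading for the run. From CBFB to CHST6 and from SLC25A32 to PUF60 both lines lie below 0, and from CRIPT to PEX7 the dashed line returns to about 0 over most of the run.

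The 4 runs held 211 genes, 5.002% of those measured. Of 264 genes lower by 1.5-fold or more, 60 (22.7%) lay in a run, a share that the choice of runs by low values helps to set. Of the 92 genes lower by 2-fold 9 lay in a run, among them IRF8 and NAE1, a subunit of the enzyme that activates NEDD8, in the longest, COL22A1 in the second and ACTN2 in the run from CRIPT to PEX7. The runs also held many of the members that departed most within the 15 classes without a changed gene. Runs and members were both chosen on the same scanner differences, which helps to set this overlap. In all, 25 of the 468 genes of these classes lay in a run. Of the 30 members with the largest difference in size there, 2 per class, 14 lay in a run. They include the glycolytic enzyme GPI at -0.49 (matrix -0.54), the cyclin CCNE1 at -0.60 (matrix -0.30), the centromere protein CENPN at -0.76 (matrix -1.16), the initiation factor subunit EIF3E at -0.72 (matrix -0.58) and the oxidase subunit COX4I1 at -0.54 (matrix -0.34).

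Probes without a gene symbol were changed more often than named ones, 4.15% of 19997 against 2.63% of 9235, and included wide gaps. Of the 20 probes highest in DKO + H2A.Z1, 10 had no symbol, and of the 20 lowest 12 had none. Both shares were below that among all compared probes, of which 19997 of 29232 had no symbol. The top 3 differed by 7.59, 7.44 and 7.27 (matrix 5.64, 6.95 and 6.75), wider than TST. The lowest had a level of -2.28 in DKO + H2A.Z1 (matrix -2.31), -3.00 in H2A.Z1ΔC and 6.63 in WT, a difference of -8.91, or 480-fold lower. That gap was wider than at either H2AFZ probe, and the transcript it detects is not named here.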

How the data were processed

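Cy3-labelled RNA of 3 DT40 lines was measured on 1 Agilent array per line. Groups came from the sample labels. The deposited processed signal, made by Agilent Feature Extraction (version 11.5.1.1) per the file headers, is a linear intensity after background subtraction, with no scaling between arrays. The deposited matrix gives a second intensity per spot, and how it was made is not given in the sources used here. Its H2A.Z1ΔC column was the processed signal times 1.53, and its DKO + H2A.Z1 column departed from a single factor with a robust standard deviation of 0.332 (log2). Columns were assigned to samples by label (0 left unused). No spot was saturated (0 spots).

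Control spots and 9 flagged spots were left out. Processed signals were scaled to the 75th percentile of each array on the log2 scale, and matrix values likewise. RefSeq accessions in the files were matched to a RefSeq gene table of assembly GRCg7b, which named 27.4% of probes for 5382 genes. That assembly is not the one of the array design, so it gave names and gene order only. No sequences are shown.

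The genes, the 40 lists (34 classes and 6 lists of other cells) and the alternatives were chosen with earlier results of these data known. Named are H2AFZ, then in each direction the 15 genes with the largest difference at the probe of highest mean signal among those changed by 1 or more in both sets of values, the 5 largest on the scanner arrays only, the 5 largest bounds, up to 4 changed members per list and direction or else the 2 of largest size, and the ends of each run. CDH20, NAE1, COX20, other genes named with a bound, and the unnamed probes, were added after their values were seen. A few genes meeting these rules are left out here. The scaling and the calls of changed probes were tested on simulated data with less spread than the measured differences. The gene means, class counts, bounds and search for runs were not part of that test. Alternatives used limma 3.58.1 in R 4.3.3 for normexp (offset 50, median signal), quantile and cyclic loess normalization. With 1 array per group no test was made.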

Additional observations from a re-analysis of the deposited data

How the results depend on the processing

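The count of 1073 changed probes was 477 with normexp and quantile normalization, 487 with normexp and the 75th percentile, 1672 with no background filter and values floored, 213 over probes brighter than the median, 444 at a threshold of 1.5 on the log2 scale, 3260 at 1.5-fold, 2094 with the matrix columns and 142 over genes in place of probes. It stayed within a factor of 1.5 with median scaling (1077), quantile normalization (1108), cyclic loess (1082) and a smooth slide surface removed (1082). Of the changed probes 39.0% were higher, and 35.2% to 46.6% under the alternatives. The robust standard deviation of 0.268 was 0.175 with floored values and 0.383 with the matrix columns. Of 39 lists with at least 5 measured members, 18 had a changed share above that of all genes, and 15 to 20 had under the alternatives. The 4 runs of neighbouring genes were 3 with a window of 25 genes and 10 with the matrix columns. With the matrix columns FABP5 (-3.03), APP (0.55) and TENM2 (0.86) changed sign, and 6 further named genes fell short of 2-fold. All of these were named because they did not reach 1 in the same direction with the matrix values. The other genes named by size were chosen because they did, so these counts follow from the choice. With normexp and quantile normalization 40 of 40 named genes were smaller in size, 27 of them by over 1.5-fold, and 4 fell short of 2-fold, and with median scaling and with quantile normalization alone all 40 kept direction and call. The cause of these shifts was not tested. No paired analysis was possible because each group had 1 array, and no replicate could be left out. The spread was wider among dim probes, where the robust standard deviation of the difference was 0.375 in the dimmest of 3 equal groups of probes, 0.266 in the middle group and 0.190 in the brightest.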
